A study of Mus musculus with 18 samples.

Results

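Among the transcript identifiers measured in mouse primary chondrocytes, 92 were lower after 12 h of interleukin-6 (IL-6) both at ordinary and at low oxygen. They were chosen from the counts of the 12 libraries taken at 12 h, each divided by the assigned reads of its library and scaled up to counts per 1e6 (CPM). A member had a mean of at least 2 CPM over those 12 libraries and a ratio of IL-6 to untreated of 0.67 or less in each oxygen condition, with 0.5 CPM added to both means, and was lower with IL-6 in all 6 pairs of libraries that share an oxygen condition and a replicate number. The 92 are 0.907% of the 10147 identifiers that reached 2 CPM, and the table lists 63244 identifiers, of which 30721 had a count. Because these values chose the members, the IL-6 differences below are a description and carry no test. The 3 members nearest the ratio limit had a larger ratio of 0.664, 0.666 and 0.666, and the 3 nearest identifiers outside it had 0.67004, 0.671 and 0.671.

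The cells came from cartilage of wild-type mice and were grown at 21% oxygen (normoxia) or 1% oxygen (hypoxia) in medium with serum. In each oxygen condition, RNA was taken from untreated cells at 0 h and at 12 h, and at 12 h from cells given IL-6 at 100 ng/ml, the 12 h step being in serum-free medium, which gives 6 groups of 3 libraries. The protocol names IL-6 or its receptor IL-6R, while the sample labels name IL-6 only, so whether receptor was added cannot be told from them. The 12 h untreated group is the control for IL-6, and 0 h differs from both 12 h groups in time and in serum as well. The labels do not say whether the 3 libraries of a group came from separate animals or cultures, so the spread between them, and any p-value built on it, may be technical.

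IL-6 is a cytokine that signals through the shared receptor subunit gp130, reached by way of a membrane-bound or a soluble IL-6 receptor, and through JAK kinases to the transcription factor STAT3. Chondrocytes build the cartilage matrix of type II collagen and aggrecan, and inflammatory cytokines are known to lower matrix synthesis and raise matrix-degrading enzymes in them. Cartilage has few vessels and its cells live at low oxygen, where the HIF transcription factors are stabilised. The deposited table gives UCSC transcript identifiers without gene names, and the annotations used here pair none of them with a gene, so no member is given a gene name, a role or a sequence, and chondrocyte markers were not analysed here. Members are therefore referred to by their rank from 1 to 92 in mean CPM at 12 h, and 4 of them also by identifier. CPM is not corrected for transcript length, so a rank says how many reads support a member and not how abundant its RNA was beside another.

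Each library held between 3088280 and 10241162 assigned reads, and the members took 0.374% to 1.41% of them. Only 32.3% to 38.0% of the uniquely aligned reads were assigned to a single identifier, and 40.6% to 50.3% overlapped several identifiers and were not counted, so an identifier that overlaps another is measured from part of its reads. Reads aligned to several places in the genome were not assigned either, and their number per assigned read ran from 0.764 to 4.18 between libraries. This ratio averaged 3.32 ± 0.757 (SD, n = 6) in the libraries numbered 1, 2.90 ± 0.335 (SD, n = 6) in those numbered 2 and 1.26 ± 0.331 (SD, n = 6) in those numbered 3. The 3 hypoxia libraries numbered 3 were also the only libraries of sequencing lane 8, and the counts and medians that use them are also given without them, an alternative added after the data were seen.

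Summed over the members, the level in normoxia was 10075 ± 3533 CPM untreated and 5910 ± 1331 CPM with IL-6. In hypoxia the sum was 8425 ± 1676 CPM untreated and 4595 ± 775 CPM with IL-6 (mean ± SD, n = 3 libraries each). The middle member had a ratio of IL-6 to untreated of 0.590 in normoxia, with a range of 0.415 to 0.666, and of 0.554 in hypoxia, with a range of 0.219 to 0.666. On the log2 scale these medians were -0.76 and -0.85, beside -0.01 and -0.04 over all identifiers at 2 CPM or more. The ratio was at or below 0.5 for 15 members in normoxia, for 27 in hypoxia and for 8 in both. It was lower in hypoxia than in normoxia for 59 of the 92 members. Without the hypoxia libraries numbered 3, the hypoxia sums averaged 8799 CPM untreated and 5021 CPM with IL-6 (n = 2), the hypoxia median was -0.87 on the log2 scale, 34 members were at or below 0.5 there and 57 were lower than in normoxia. No member fell to 0, and the lowest count of any member in a 12 h library was 2.

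**Figure D1:**
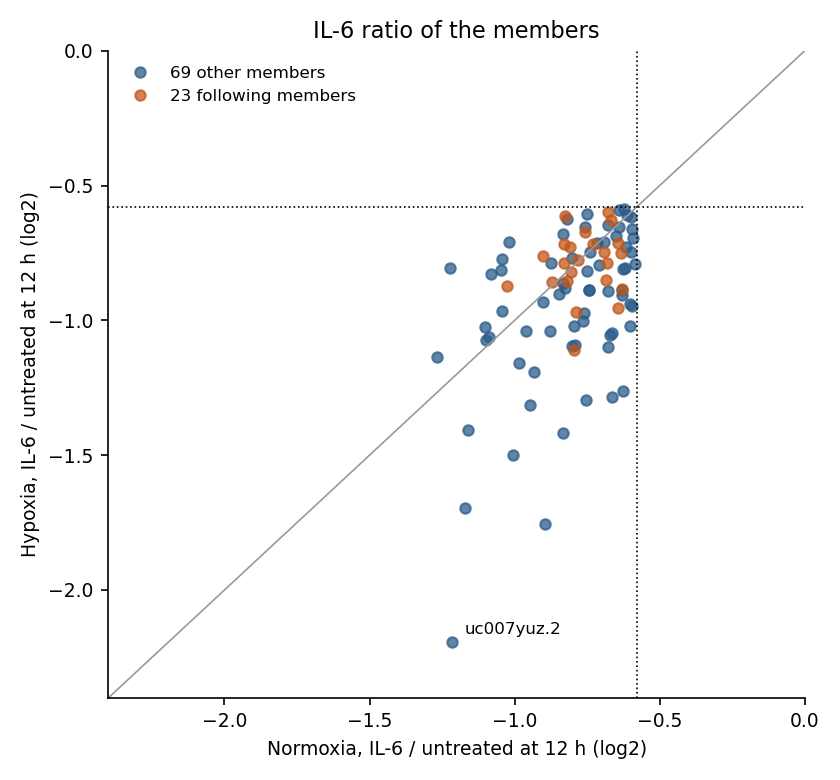
Ratio of IL-6 to untreated at 12 h for each of the 92 members, on the log2 scale, in normoxia (horizontal axis) and hypoxia (vertical axis), with the solid line marking equal ratios and the dotted lines the limit of 0.67 that chose the members. Of the points, 59 lie under the line of equal ratios, and uc007yuz.2 stands apart at the bottom with ratios of 0.430 and 0.219.

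The member with the lowest mean log2 ratio was uc007yuz.2, rank 64. In normoxia it stood at 6.72, 6.48 and 8.28 CPM in the untreated 12 h libraries 1 to 3 and at 1.45, 3.57 and 3.37 CPM with IL-6. In hypoxia the untreated values were 21.9, 9.72 and 12.5 CPM and the IL-6 values 3.03, 2.22 and 3.23 CPM. In both oxygen conditions every IL-6 library lay below every untreated library. Untreated hypoxia was above untreated normoxia, with means of 14.7 ± 6.36 and 7.16 ± 0.977 CPM (SD, n = 3), but with IL-6 the means were 2.82 ± 0.535 and 2.80 ± 1.17 CPM and the libraries overlapped. The ratio of IL-6 to untreated was accordingly 0.219 in hypoxia and 0.430 in normoxia.

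The other 7 members at or below 0.5 in both oxygen conditions were those of ranks 36, 48, 49, 52, 58, 59 and 60, chosen here after their values were seen. The lowest ratio of the set in normoxia, 0.415, was that of rank 52. Its normoxia values were 12.8, 17.2 and 28.0 CPM untreated and 5.45, 8.92 and 8.84 CPM with IL-6. Its hypoxia values were 16.2, 18.7 and 18.4 CPM untreated and 7.13, 6.21 and 10.1 CPM with IL-6. This member separated the IL-6 and untreated libraries in both oxygen conditions and stood at nearly the same mean in normoxia and hypoxia, 19.3 ± 7.79 and 17.8 ± 1.33 CPM untreated (SD, n = 3). Rank 59 stood at 0.444 of untreated in normoxia and 0.308 in hypoxia. Its hypoxia values were 24.0, 21.2 and 13.1 CPM untreated and 5.86, 5.47 and 5.61 CPM with IL-6, while its normoxia values of 6.72, 10.3 and 14.4 CPM untreated and 2.73, 6.50 and 3.89 CPM with IL-6 were separated by a narrow gap. Rank 49 had ratios of 0.447 and 0.377 and showed the opposite arrangement, a wide spread between numbers with a fall inside each. In hypoxia it was at 22.1, 4.23 and 30.1 CPM untreated and at 3.61, 0.591 and 16.1 CPM with IL-6, so the groups overlapped although each pair fell.

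Ranks 6 and 2, chosen after their values were seen, are examples of members supported by more reads. Rank 6 stood at 583, 470 and 638 CPM untreated in normoxia and at 281, 235 and 361 CPM with IL-6. In hypoxia it stood at 438, 459 and 551 CPM untreated and at 142, 167 and 273 CPM with IL-6. Its groups did not overlap in either oxygen condition, and its ratios were 0.519 and 0.403. The member of rank 2 was lower in hypoxia than in normoxia in both 12 h states. It had 1222, 976 and 1705 CPM untreated and 633, 523 and 1145 CPM with IL-6 in normoxia, and 490, 302 and 717 CPM untreated and 218, 120 and 431 CPM with IL-6 in hypoxia. Its IL-6 and untreated libraries overlapped in both oxygen conditions because number 3 was high and number 2 low throughout. Every same-numbered pair nevertheless fell, by the rule that chose it.

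The member with the most reads was uc012fyu.2, rank 1. In normoxia it was at 4207, 904 and 1281 CPM untreated and at 2208, 856 and 658 CPM with IL-6, and in hypoxia at 1564, 1080 and 1193 CPM untreated and at 997, 985 and 257 CPM with IL-6. The normoxia groups overlapped, with library 1 far above the others in both states, and the hypoxia groups did not. In pair 2 the fall was small in both oxygen conditions. The ratios of the means, 0.582 and 0.584, rest mainly on pairs 1 and 3. Over the 18 libraries the level of uc012fyu.2 followed the number of multiply aligned reads per assigned read, as described below for 23 members. Its correlation of 0.71 was the lowest of those 23.

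**Figure D2:**
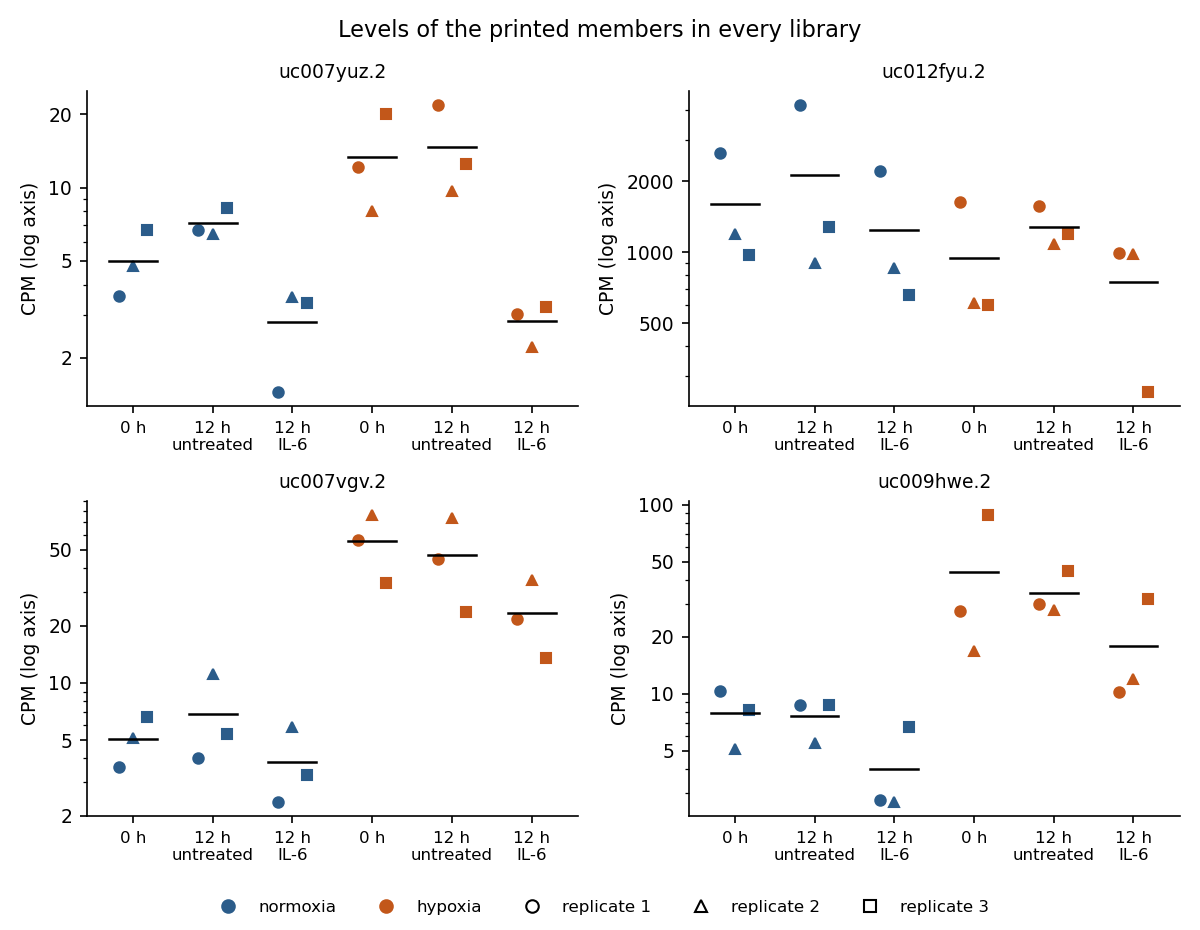
Level of the 4 members printed by identifier in each of the 18 libraries, in CPM on a log axis, with one symbol per replicate number and a line at each group mean. With IL-6, uc007yuz.2 lay below its untreated 12 h libraries in both oxygen conditions, whereas uc012fyu.2 varied as much between numbers as between states, and uc007vgv.2 and uc009hwe.2 were higher in hypoxia at 0 h and at 12 h.

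The pattern across the 18 libraries divided the members into 23 whose level followed the ratio of multiply aligned to assigned reads and 69 whose level did not. A member was counted as following at a Pearson correlation of 0.7 or more between its log2 CPM and the log2 of that ratio over the 18 libraries, a division made after the data were seen. The 23 had correlations of 0.71 to 0.99 and the 69 had -0.56 to 0.51, and no member lay between. All points share the assigned total of their library, which enters both quantities. Following members made up 25.0% of the set, while 229 identifiers, 2.26% of those at 2 CPM or more, followed the ratio. In the 6 libraries of 0 h alone, 22 of the 23 reached 0.7, beside 7.41% of all identifiers, and these libraries are among the 18 that defined the division. Without the hypoxia libraries numbered 3, 22 members reached 0.7, beside 1.52% of all identifiers.

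The 2 kinds of member differed in how their libraries spread. The 23 were picked for following a ratio that differed between replicate numbers. That choice favours a wide spread within groups, so the spreads are a description. In the 6 groups the median ratio of the highest to the lowest library was 2.91 to 9.53 for the following members, 1.58 to 1.77 for the others and 1.52 to 1.63 for all identifiers at 2 CPM or more. An example is the member of rank 5, with a correlation of 0.99. Its normoxia values were 1135, 674 and 268 CPM untreated and 539, 535 and 111 CPM with IL-6, and its hypoxia values were 748, 691 and 211 CPM untreated and 394, 546 and 54.0 CPM with IL-6. Library 3 was the lowest in each of these groups, and the groups overlapped in both oxygen conditions. Of the 23 following members, 16 (69.6%) have identifiers that begin with uc011, uc012, uc029 or uc033, beside 3 of the 69 others (4.35%) and 8.12% of all identifiers at 2 CPM or more. These beginnings are the ones after uc009 that hold members, so the shares are a description. At that level 357 identifiers begin with uc056 and 109 with uc057, none of them a member, and they are not in the 8.12%. The members of ranks 11 and 16, both following, stand in adjacent lines of the table, and whether they share reads could not be read from it.

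**Figure D3:**
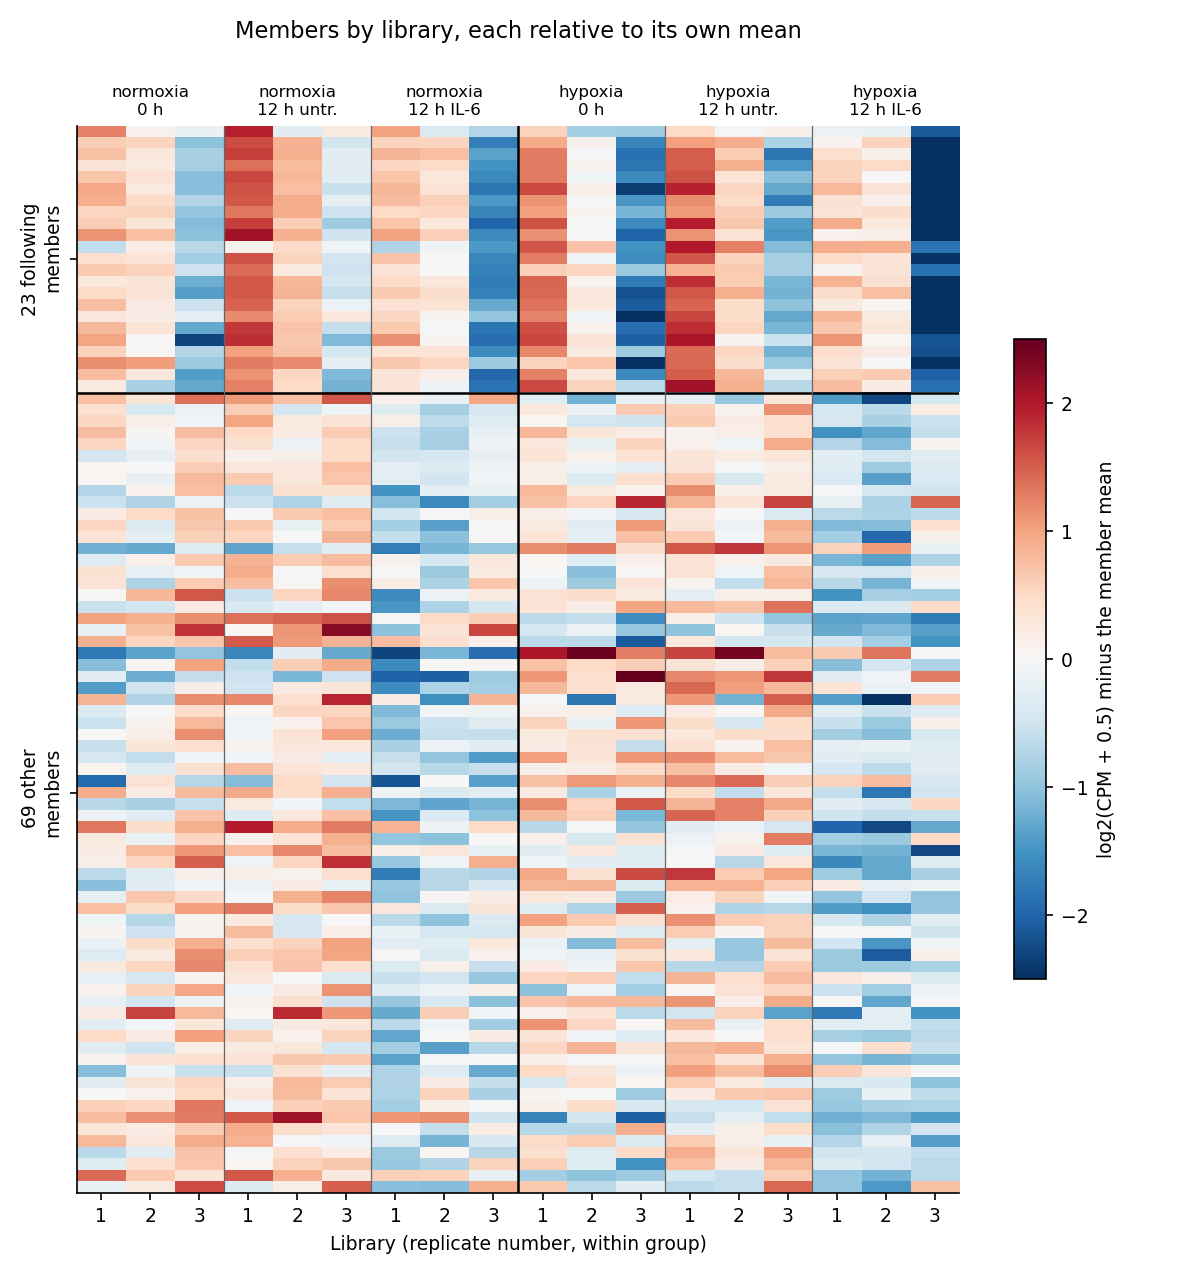
Level of every member in every library, as log2(CPM + 0.5) minus the mean of that member over the 18 libraries, with the 23 following members above the line and the 69 others below it, each ordered by rank. The upper block runs with replicate number, mostly red in number 1 and mostly blue in number 3, while the lower block is mostly blue in the IL-6 columns of both oxygen conditions.

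The ratio of multiply aligned to assigned reads was itself lower with IL-6 in all 6 same-numbered pairs. In normoxia it went from 4.18 to 2.81 in pair 1, from 2.78 to 2.57 in pair 2 and from 1.70 to 1.06 in pair 3, and in hypoxia from 3.89 to 2.34, from 3.45 to 3.08 and from 1.48 to 0.764. The change was small in pair 2 of each oxygen condition and larger in pairs 1 and 3. The median following member moved by -0.88, -0.39 and -1.14 on the log2 scale in normoxia pairs 1 to 3 and by -1.02, -0.32 and -1.44 in hypoxia, smallest where that ratio changed least. The median other member moved by -0.95, -0.79 and -0.70 in normoxia and by -1.07, -0.89 and -0.88 in hypoxia, and was thus about as low in pair 2 as in the rest. The median over all identifiers at 2 CPM or more stayed between -0.06 and 0.01 in the 6 pairs. Normoxia pair 2 was the only pair whose libraries were sequenced in different lanes. The 23 were picked by their correlation with this ratio over the same libraries, so the match from pair to pair restates that choice, and the part of the multiply aligned reads in their fall was not tested.

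**Figure D4:**
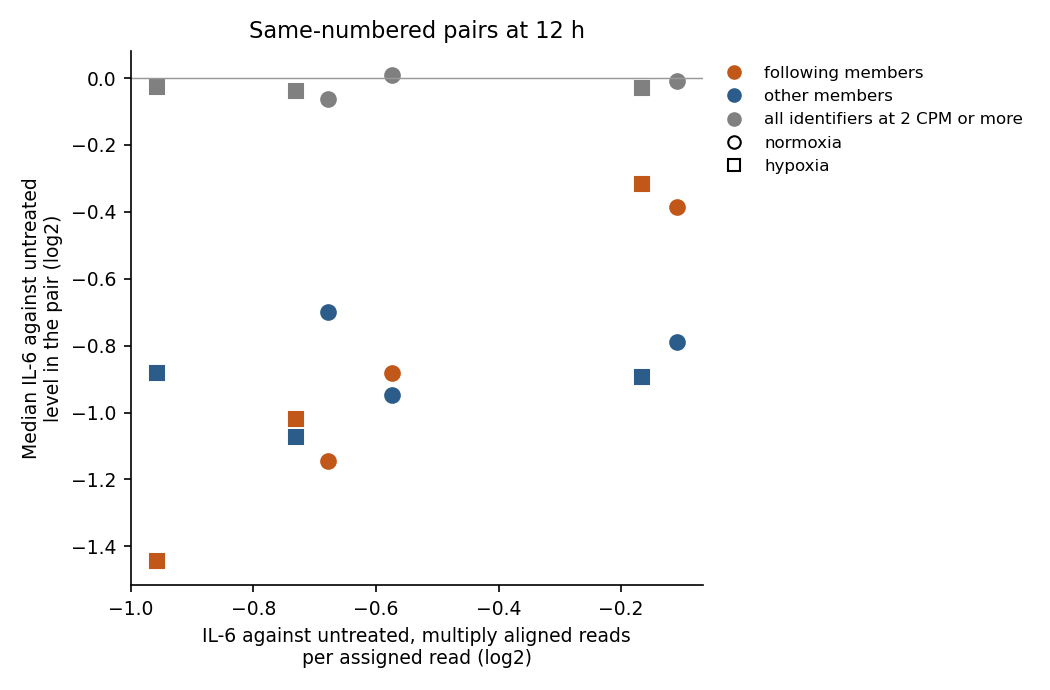
Median change with IL-6 in each of the 6 same-numbered pairs at 12 h, in log2, for the 23 following members, the 69 other members and all identifiers at 2 CPM or more, against the change in multiply aligned reads per assigned read in that pair. The following members run from -0.32 to -1.44 and are lowest where the ratio fell most, the other members keep between -0.70 and -1.07, and all identifiers stay near 0.

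Whether the libraries of a state separated is described next for the 2 kinds of member. In normoxia the IL-6 libraries lay wholly below the untreated ones for 35 members, where 3.47% of the identifiers at 2 CPM or more did so, and all 35 were among the 69 that did not follow. In hypoxia this held for 49 members against a background of 4.33%, and 1 of the 49 was a following member. It held in both oxygen conditions for 27 members, against 0.591%, none of them following. Leaving out the hypoxia libraries numbered 3, the count in hypoxia was 81 members against 18.5%, with 2 libraries on each side. These shares rest on the contrast that chose the members and are given as a description. The following members were picked for tracking a ratio that differed between replicate numbers, which favours overlap between their groups. Their near absence from these counts is therefore no separate result.

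Fitted to all 18 libraries without pairing, edgeR's quasi-likelihood test with Benjamini-Hochberg adjustment called 0 of the 92 members lower with IL-6 in normoxia, with 0.0% of the 13432 tested identifiers called lower, and 35 members had an unadjusted p under 0.05, beside 1.01% of all tested. DESeq2 called 4, against 0.0542% of the identifiers it tested. In hypoxia edgeR called 4 members, those of ranks 6, 30, 64 and 81, against 0.0298% of all tested, 44 had an unadjusted p under 0.05, beside 1.94%, and DESeq2 called 11, against 0.183%. With hypoxia number 3 left out of its 3 groups, edgeR called 2 in hypoxia, against 0.0146%. With the replicate number as a block within each oxygen condition, edgeR called 44 members lower in normoxia (0.938% of all tested) and 53 in hypoxia (1.68%), 42 of them in both (0.469%), and 41 in hypoxia without number 3 (1.12%). Of the 42, 38 were among the 69 and 4 among the 23. Nothing is read from these counts, because the rule used the same contrast.

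Adding the log2 ratio of multiply aligned to assigned reads to the blocked fit, a choice made after the data were seen, gave the values that follow. The 23 were defined by their correlation with this ratio, so the direction of their shift was fixed by that choice. The 69 were defined by a lower correlation of either sign, which favours a small median shift. Nothing is read from either shift. For the 23 the median fitted log2 fold change in normoxia was -0.79 before and -0.26 after, and in hypoxia -0.76 before and -0.09 after. For the 69 it was -0.82 before and -0.77 after in normoxia, and -0.98 before and -0.92 after in hypoxia. Under this fit edgeR called 18 members lower in normoxia (0.268% of all tested) and 21 in hypoxia (0.208%), none of them following. It called 14 identifiers lower in both oxygen conditions (0.104%), and all 14 were members. Because the ratio fell with IL-6 in every pair, the covariate and IL-6 moved together, and their parts cannot be told apart in this design.

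Libraries left out of the choice gave a reading that the choice did not use. When the same rule was applied to the libraries of numbers 2 and 3 alone, 72 identifiers were chosen, and 62 of them (86.1%) were lower with IL-6 in both pairs numbered 1, beside 31.3% of all identifiers. Chosen without number 2, 152 identifiers gave 119 (78.3%) lower in both pairs numbered 2, beside 31.8%, and chosen without number 3, 103 gave 86 (83.5%) lower in both pairs numbered 3, beside 33.1%. Most of what was chosen in any 2 numbers was therefore lower in the other. The median log2 change in the unused pairs was -0.85 in normoxia and -0.997 in hypoxia for number 1, -0.45 and -0.42 for number 2, and -0.67 and -0.77 for number 3. Without the identifiers that follow the multiply aligned reads, the values were -0.85 and -0.97 for number 1, -0.62 and -0.67 for number 2, and -0.60 and -0.72 for number 3. Following was judged over all 18 libraries, the unused pairs among them, so these last values are a description. The followed ratio was also lower with IL-6 in every unused pair, least so in the pairs numbered 2. These shares therefore do not tell IL-6 apart from that ratio, whose part was not tested.

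The oxygen conditions were read against each other in the same way. The rule applied to normoxia alone chose 231 identifiers, of which 153 (66.2%) were lower in all 3 hypoxia pairs, beside 25.4% of all identifiers, and 94 (40.7%) met the whole rule in hypoxia, beside 4.57%. Applied to hypoxia alone it chose 543, of which 212 (39.0%) were lower in all 3 normoxia pairs, beside 20.9%, and 93 (17.1%) met the rule in normoxia, beside 2.28%. Identifiers that met the rule in both conditions are, apart from the level floor, the 92 members themselves. The counts of 94 and 93 are therefore a description of the set and no separate result. The median log2 change in the condition not used was -0.51 in hypoxia and -0.16 in normoxia, beside -0.03 and -0.01 over all identifiers. Without the following identifiers, 116 of 181 (64.1%) and 170 of 492 (34.6%) were lower in all 3 pairs. Following was judged on libraries that include those pairs, so these 2 shares are a description. Without the hypoxia libraries numbered 3, 181 of the 231 (78.4%) were lower in both remaining hypoxia pairs, beside 35.8% of all identifiers, and of 549 chosen in hypoxia 230 (41.9%) were lower in the 3 normoxia pairs, beside 21.5%. More identifiers fell past the limit in hypoxia, and a smaller share of those did so in normoxia. The 2 shares start from lists of unequal length, and their difference was not tested.

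The 0 h libraries place the fall beside the level at which the culture began. From 0 h to 12 h without treatment the median member moved by 0.29 on the log2 scale in normoxia and by 0.25 in hypoxia, and all identifiers at 2 CPM or more by -0.02 and 0.12. From 0 h to 12 h with IL-6 the median member moved by -0.49 and -0.58, and all identifiers by -0.03 and 0.09. The mean at 0 h lay between the IL-6 and the untreated 12 h means for 73 members in normoxia and 70 in hypoxia, above both for 13 and 18, and below both for 6 and 4. It lay between them in both oxygen conditions for 59 members, above in both for 7 and below in both for none of the 92. Choosing members for a high untreated and a low IL-6 mean at 12 h favours a 0 h mean between them, so these counts are a description. Without the hypoxia libraries numbered 3, the hypoxia counts were 70 between, 19 above and 3 below, and the hypoxia medians were 0.24 untreated and -0.62 with IL-6. The 13 and 18 members above both were all among the 69, and the 23 following members moved by 0.66 and 0.36 without treatment.

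The IL-6 libraries lay wholly below the 0 h libraries for 21 members in normoxia, against 5.02% of all identifiers at 2 CPM or more. In hypoxia they did so for 27 members, against 3.05%, and all of these members were among the 69. The rule chose members for low IL-6 values at 12 h, which favours lying below 0 h. The choice of following members favours overlap between groups, so these counts are a description. Without the hypoxia libraries numbered 3, the count in hypoxia was 59, against 20.6%. Rank 6 was one such member in both oxygen conditions. Its 0 h values were 701, 429 and 700 CPM in normoxia and 727, 504 and 466 CPM in hypoxia, above all 3 IL-6 values of the same oxygen condition. Its untreated 12 h values overlapped those at 0 h in both. Rank 52 behaved alike, with 13.4, 15.3 and 31.0 CPM at 0 h in normoxia and 16.0, 17.7 and 17.8 CPM in hypoxia, near its untreated 12 h values and above its IL-6 values. The member of rank 30 differed. In normoxia it went from 32.1, 43.8 and 63.5 CPM at 0 h to 73.5, 62.7 and 70.0 CPM untreated at 12 h and to 43.3, 29.4 and 48.9 CPM with IL-6, so the IL-6 and 0 h libraries overlapped there.

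Hypoxia against normoxia at 0 h is the comparison of the members that the rule did not use, since no 0 h library entered it. The spread in the fit was still estimated over all 18 libraries, the 12 h libraries that chose the members among them. All 92 passed the filter on low counts. In edgeR's quasi-likelihood test with Benjamini-Hochberg adjustment over the 13432 tested identifiers, 9 members were called higher in hypoxia, against 2.13% of all tested, and 5 were called lower, against 2.82%. Called in either direction were 14 of the 92, against 4.95%, and none of the 23 following members was among them. Fitted to the 0 h libraries alone, edgeR called 5 members, against 2.71% of the identifiers then tested. The tested identifiers include some under the 2 CPM that members had to reach, so the 2 sets are unlike in level. The 23 were picked partly on the 0 h libraries, for a ratio that differed between replicate numbers. That choice favours a wide spread and so no call. At an unadjusted p under 0.05 there were 17 higher and 10 lower members, beside 7.82% and 8.90% of all tested. The median fitted log2 fold change of the members was 0.06, beside 0.04 over all tested, and it was -0.29 without hypoxia library 1. Fitted log2 fold changes ran from -2.97 to 3.56, and all 14 called members differed by at least 2-fold.

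The largest rise in hypoxia was that of uc007vgv.2, rank 43. It stood at 3.59, 5.10 and 6.57 CPM in normoxia at 0 h and at 56.5, 76.2 and 33.7 CPM in hypoxia. The groups did not overlap, and the lowest hypoxia library was well above the highest normoxia one. The log2 fold change was 3.56 ± 0.52 (SE, adjusted p = 0.000724 by edgeR's quasi-likelihood test with Benjamini-Hochberg adjustment), and the call held without each of the 0 h libraries in turn. At 12 h the values were 4.03, 11.2 and 5.37 CPM untreated in normoxia against 44.8, 73.4 and 23.7 CPM in hypoxia. With IL-6 they were 2.36, 5.86 and 3.26 CPM against 21.7, 34.9 and 13.5 CPM. Hypoxia was above normoxia without overlap in all 3 states, and the ratio of IL-6 to untreated was 0.588 in normoxia and 0.499 in hypoxia. The IL-6 and untreated libraries of this member overlapped in both oxygen conditions.

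Next among the rises was uc009hwe.2, rank 47, at 10.4, 5.10 and 8.22 CPM in normoxia at 0 h and at 27.5, 16.8 and 88.1 CPM in hypoxia. The groups did not overlap, and hypoxia library 3 was more than 3-fold above the other hypoxia libraries. The log2 fold change was 2.68 ± 0.58 (SE, adjusted p = 0.00969 by edgeR with Benjamini-Hochberg adjustment). Without hypoxia library 3 the adjusted p from edgeR was 0.0728, and the call was also lost without normoxia library 2. At 12 h it stood at 8.66, 5.47 and 8.73 CPM untreated in normoxia and 29.7, 27.8 and 44.6 CPM in hypoxia, and with IL-6 at 2.73, 2.68 and 6.63 CPM and 10.3, 12.0 and 31.7 CPM. Hypoxia was again the higher without overlap in all 3 states.

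The 5 members lower in hypoxia were those of ranks 36, 40, 60, 86 and 91. The member of rank 36 was at 42.5, 39.3 and 47.5 CPM in normoxia at 0 h and at 13.0, 13.6 and 6.80 CPM in hypoxia. Its fitted log2 fold change was -1.80 ± 0.28 (SE, adjusted p = 0.000975 by edgeR with Benjamini-Hochberg adjustment). It kept this order at 12 h, with 54.8, 58.3 and 64.3 CPM untreated in normoxia against 23.2, 14.6 and 10.3 CPM in hypoxia, and with IL-6 20.4, 29.3 and 32.4 CPM against 8.01, 8.13 and 5.89 CPM. Low oxygen and IL-6 thus each went with less of it, and its lowest group was IL-6 in hypoxia. Rank 86 had the largest fall, -2.97 ± 0.71 (SE, adjusted p = 0.0188 by edgeR with Benjamini-Hochberg adjustment), but from few reads. It was at 2.99, 4.03 and 4.52 CPM in normoxia and at 0.138, 0.981 and 0 CPM in hypoxia, where a count of 0 in library 3 allows up to 0.971 CPM for counting error alone.

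Of the 14 calls, 5 held with each single 0 h library left out, those of ranks 28, 36, 40, 43 and 58, and 9 were lost in at least 1 such fit. Between 4 and 7 of the 14 were lost with any 1 library left out, most without normoxia library 2 or hypoxia library 1. The call of uc007yuz.2 was among those lost, in 4 of the 6 fits. It was higher in hypoxia at 0 h, at 12.2, 7.99 and 20.1 CPM against 3.59, 4.78 and 6.68 CPM, with a log2 fold change of 1.54 ± 0.38 (SE, adjusted p = 0.0239 by edgeR with Benjamini-Hochberg adjustment). Sequencing lane was partly bound to oxygen. Of the 0 h libraries, lane 3 held normoxia 1 and 2 and hypoxia 1, and within it all 14 had the direction of the call. These libraries are among those that made the calls, so the shared direction restates the calls and is no test of lane. With hypoxia number 3 left out of its 3 groups, 15 members were called, against 6.91% of the identifiers then tested.

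**Figure D5:**
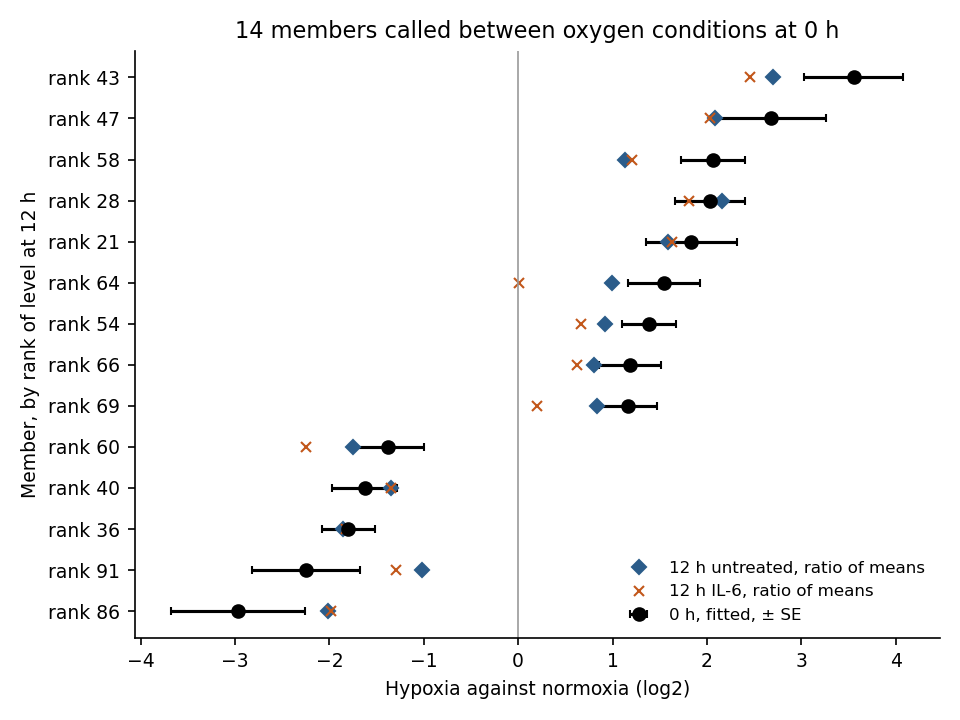
Difference between hypoxia and normoxia, in log2, for the 14 members called at 0 h, ordered by the fitted 0 h value (black points, bars ± SE), with the log2 ratio of group means plus 0.5 CPM at 12 h untreated (diamonds) and at 12 h with IL-6 (crosses). All 9 members above 0 at 0 h are above 0 in both 12 h states, with the rank 64 member, uc007yuz.2, near 0 with IL-6, and all 5 below 0 stay below it.

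The 12 h libraries chose the members, so the oxygen difference there is described without a test. All 9 members called higher at 0 h were higher in hypoxia at 12 h untreated, without overlap, and all 9 were higher with IL-6, 7 of them without overlap. All 5 called lower were lower in both 12 h states, 4 without overlap untreated and 5 with IL-6. Over all 92 members, hypoxia lay wholly above normoxia for 12 at 0 h, 15 at 12 h untreated and 12 with IL-6, against 6.23%, 9.54% and 7.16% of identifiers at 2 CPM or more. It lay wholly below for 10, 10 and 13, against 19.1%, 15.2% and 11.1%. In all 3 states alike, 8 members were separated upward, against 2.41% of all identifiers, and 5 downward, against 7.0%. None of these 13 followed the multiply aligned reads, and the choice of following members favours overlap between groups. Leaving out hypoxia number 3, the upward count was 13, against 8.98%, and the downward count 9, against 12.6%. Members that stood higher in hypoxia, such as uc007vgv.2, and lower, such as that of rank 36, were thus both in the set. Their fall with IL-6 in both oxygen conditions is the rule that chose them and no separate result.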

How the data were processed

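RNA was sequenced from 18 libraries after ribosomal RNA depletion, as single-end reads, per the labels' protocols. Reads were aligned to mm10 with TopHat2 and counted with HTSeq, and DESeq2 was used, per the submitters' processing notes; their versions are not given in the sources used here. What the authors deposited are raw counts for each UCSC identifier. Its 5 summary lines stayed out of totals and tests, and uniquely aligned reads outside identifiers were 12.1% to 27.1%.

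CPM is the deposited count per 1e6 assigned reads, computed here with Python 3.11.15 and pandas 2.3.3. Tests used edgeR 4.0.16 in R 4.3.3 (filterByExpr by group, TMM, robust quasi-likelihood F-test, all 18 libraries, 1 coefficient per group, Benjamini-Hochberg adjusted p under 0.05). SE is the absolute log2 fold change over the square root of F. DESeq2 1.42.0 was an alternative. The scripts were tested on simulated data. A count of 0 allows 3 counts, 0.293 to 0.971 CPM by library. Intervals of this kind cover counting error only.

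Replicate numbers come from the labels. Deviations from group means over all identifiers correlated between same-numbered untreated and IL-6 libraries at 0.72, 0.68 and 0.52 in normoxia and 0.38, 0.59 and 0.66 in hypoxia, so the numbers were taken as pairs within an oxygen condition. Lanes were read from the library names in the labels. Members and the division by multiply aligned reads were chosen with earlier results of these data known. The members printed by identifier were the lowest mean log2 ratio among those at 5 CPM or more, the most reads, and the 2 largest rises in hypoxia at 0 h; others named by rank were picked after their values were seen.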

Additional observations from a re-analysis of the deposited data

How the results depend on the processing

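The number of members was 333 at a ratio limit of 0.8, 8 at 0.5 and 60 with 2 CPM added, and 72 to 152 with 1 replicate number left out, highest without number 2. The other settings gave 66 to 110. At 0 h, edgeR called 23 members with a replicate block, 22 with block and lane and 5 from the 0 h libraries alone, and 7 to 11 without 1 library. Same-numbered 0 h libraries of the 2 oxygen conditions correlated at -0.05, 0.36 and 0.10, and not all passed 0.1, so the block is given here only. The library names do carry 1 prefix per number in both oxygen conditions, whose meaning the labels do not give, and the multiply aligned reads differed by number in both. All identifiers called were 1473 with the block (10.97% of those tested), 2449 with block and lane (18.23%) and 310 from 0 h alone (2.71%). They were 1010 with the multiply aligned reads as covariate (7.52%) and 356 to 658 without 1 library (2.53% to 4.70%). The member counts at 0 h are out of 92. Adding lane to the block raised the share over all identifiers but not the member count. The median 0 h difference of the members ran from -0.29 (without hypoxia library 1) to 0.17 without 1 library; the causes were not tested.

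Members called lower with IL-6 in normoxia were 4 by DESeq2 (0.0542% of all it tested), 44 with the replicate block within oxygen (0.938%) and 18 with block and covariate (0.268%). Without the filter there was 1, and leaving out 1 library gave 0 each time. In hypoxia they were 11 (0.183%), 53 (1.68%) and 21 (0.208%) in the same order, and 8 without the filter. They were 2 without hypoxia number 3 (0.0146%), or 41 with the block (1.12%). From the 2 groups alone there were 0, and without 1 library 0 to 4. The counts without the filter and without 1 library have no share over all identifiers beside them. Nothing is read from any of these counts, because the rule used the same contrast. Depth limits the 26 members with a count under 10 in some 12 h library.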

Other observations

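Outside the members, 206 identifiers at 2 CPM or more followed the multiply aligned reads over the 18 libraries. With IL-6 their mean was lower for 189 in normoxia and 175 in hypoxia. Their median log2 ratios were -0.28 and -0.29, beside -0.01 and -0.04 over all identifiers at 2 CPM or more. In all 6 same-numbered pairs 68 of the 206 were lower, beside 9.14% of all identifiers at that level. The 206 were picked by correlation with a ratio that fell with IL-6 in all 6 pairs. Those pairs are among the 18 libraries used, so this fall restates the choice.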
